A study of Sus scrofa with 8 samples.

Results

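Kinesins and myosins, the motor proteins that move along microtubules and actin filaments, made up 59 of the 10901 named genes measured in a month-long culture of porcine oviductal cells. The members were all genes whose annotated symbol begins with KIF or KIFC (31 kinesins) or with MYO, MYH or MYL (28 myosins) followed by a number or, for KIFC, by C. The rule itself used no measured value beyond the probe set kept for a gene, the one with the highest mean over the 8 arrays. The members, their roles and the lists of other genes were, however, chosen with earlier results of these data known. One matching symbol, KIF1BP, belongs to a protein that binds kinesins and is no motor, and the MYL genes encode light chains that sit on a myosin heavy chain.

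The cells were oviductal epithelium of 45 landrace crossbred gilts, about 9 months old and with regular oestrous cycles. They were freed with collagenase and trypsin and kept in DMEM with fetal bovine serum, antibiotics and an antifungal agent. Time in culture was the only labelled difference between the groups, and RNA was taken at 24h and at days 7, 15 and 30. Each time has 2 Affymetrix arrays of 1 colour, titled as biological replicates but made from pooled samples. Whether the 2 arrays came from separate pools is not stated, so the tests compare times with a spread between arrays that may be technical. All values are log2 expression values, on which 1 unit is a 2-fold difference, and the number of arrays limits the precision.

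Kinesins take ATP energy to step along microtubules. One set of them builds and elongates the mitotic spindle and divides the cell, and is made mainly by dividing cells, while others carry vesicles, organelles or ciliary components. Myosins pull on actin. Myosin II filaments, made of MYH heavy chains with regulatory and essential MYL light chains, give contraction, and the unconventional myosins tether membranes or carry vesicles, which in the epithelium of the oviduct includes traffic to the apical surface.

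Array medians lay between 4.69 and 4.77, and across probe sets the correlation within a time was between 0.990 and 0.995. Markers of the labelled cell type moved strongly with time. The mean of the 7 measured epithelial markers was 10.01 and 10.25 on the 24h arrays, 8.46 and 8.48 at 7 days, 7.61 and 7.81 at 15 days, and 6.35 and 6.36 at 30 days. EPCAM, an epithelial adhesion molecule, went from a mean of 11.23 at 24h to 3.31 at 30 days, while KRT8, a keratin of simple epithelia, was at 11.05 and 11.34. The mean of 7 fibroblast markers was between 4.58 and 4.70 at 24h and between 8.23 and 8.36 at 30 days. In these bulk samples, fewer cells of a type and less RNA per cell cannot be told apart, and the part of these markers in the results for the motors was not tested.

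Over the 4 times, 21 of 31 kinesins and 12 of 28 myosins differed in limma's moderated F test, against 46.3% of all genes. A gene was called where its p, adjusted by Benjamini-Hochberg across the whole table, was under 0.05. In the first week more kinesins rose than fell, and 15 of 31 did not pass. Between 24h and 7 days, 13 kinesins rose and 3 fell, and 5 myosins rose and 2 fell, where 33.7% of all genes were called, 18.3% higher and 15.4% lower. The median log2 change was 0.12 for kinesins and 0.05 for myosins, beside -0.01 for all genes. Centring used each array's median over the 10901 named genes, which is not the array median given above. Centred so, the median of all genes was -0.17 at this comparison, that of kinesins -0.04 and that of myosins -0.11. On that scale 13 kinesins were called higher and 7 lower, and 2 myosins higher and 6 lower. The higher calls then made up 36.0% of all calls, against 54.2% without centring. The myosin counts also moved when single arrays were left out, each alone here and throughout. Without replicate 2 of 24h or of 7 days the calls of the falls ended. The log2 changes were then -0.38 and -0.45 for MYO1E and -0.51 and -0.47 for MYO5C. Calls with at least a 2-fold change were 11 kinesins and 2 myosins higher and no motor lower, where 6.42% of all genes were higher and 3.47% lower by that rule.

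From 7 to 15 days, 51 of 59 motors did not pass, and neither did 9451 of the 10901 genes, so few calls were not particular to the motors. One kinesin rose and 4 fell, and 3 myosins fell, where 13.3% of all genes were called, 6.58% higher and 6.72% lower. No myosin was called higher in limma (count of 0, with 1 at an unadjusted p under 0.05). Centred arrays gave 0 kinesins higher and 4 lower, and quantile normalization 0 and 5. Fewer falls were called without replicate 1 of 7 days or either array of 15 days, which leaves 1 array for that time. The falls that lost their calls then had log2 changes between -0.66 and -0.40, against -0.62 to -0.43 with all arrays. The 1 rise, that of KIF7, is taken up with its gene. At least 2-fold, 1 kinesin (KIF1A) and 1 myosin (MYO5C) fell, where 1.84% of all genes were lower and 1.78% higher by that rule.

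From 15 to 30 days, 12 kinesins fell and 2 rose, and 2 myosins fell with 0 rising in limma (2 rose at an unadjusted p under 0.05), against 10.1% of all genes called, 6.11% lower and 3.94% higher. At least 2-fold, 8 kinesins and 1 myosin fell and 1 kinesin rose, where 2.37% of all genes were lower and 0.899% higher by that rule. The myosin calls at that comparison were 2 higher and 1 lower on centred arrays, on which the median of all genes was 0.14 and 65.1% of all calls were higher against 39.2% without centring. After quantile normalization the myosins gave 2 higher and 2 lower. The 2 kinesin rises became 0 without replicate 1 of 15 days and 1 without replicate 2 of 15 or of 30 days, and 1 of the 2 myosin falls was lost without either array of 15 days or replicate 1 of 30 days. Without either array of 24h, 1 myosin was called higher. Over the month, 30 days against 24h, 6 kinesins rose and 9 fell, and 6 myosins rose and 5 fell, where 41.2% of all genes were called, 20.2% higher and 21.1% lower. Without replicate 2 of 24h, 4 kinesins fell. Centred arrays gave 4 myosins higher and 5 lower over the month.

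**Figure D1:**
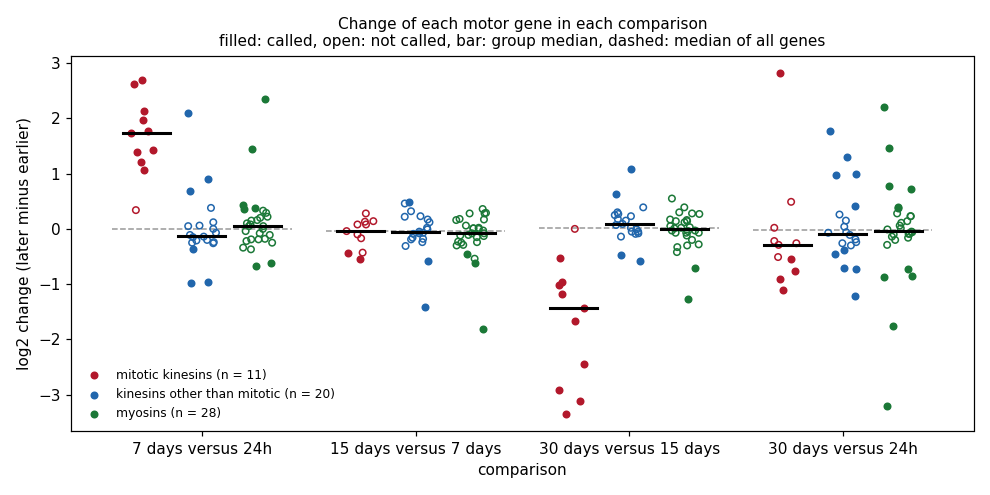
Log2 change of each motor gene (later minus earlier time) in 4 comparisons, for 11 mitotic kinesins, 20 other kinesins and 28 myosins. Filled points passed limma's test, open points did not, the black bar is the group median and the dashed line the median of all genes. The mitotic kinesins stand apart at 7 days (median 1.73) and between 15 and 30 days (median -1.44), while the medians of the other groups lie between -0.13 and 0.08.

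The kinesins of cell division held most of the kinesin calls at 7 days and from 15 to 30 days. Of 11 measured mitotic kinesins, 10 rose between 24h and 7 days and 10 fell between 15 and 30 days, with median log2 changes of 1.73 and -1.44. Of the 20 other kinesins, 3 rose and 3 fell at 7 days, and 2 rose and 2 fell from 15 to 30 days. Of all genes, 18.3% rose and 15.4% fell at 7 days, and 3.94% rose and 6.11% fell from 15 to 30 days. All 11 mitotic members differed over the 4 times, 6 with their highest mean at 7 days and 5 at 15 days, whereas 19.8% and 12.6% of all genes called by the F test were highest at those times.

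KIF20A, a motor that works in cytokinesis, had values of 4.87 and 5.78 on the 24h arrays, 8.04 and 7.87 at 7 days, 7.91 and 7.92 at 15 days, and 4.78 and 4.34 at 30 days. Both middle times lay above both outer times with no overlap, and the 30-day arrays lay below those of 24h. The gene rose 6.18-fold at 7 days (log2 change 2.63 ± 0.256, SE, limma adjusted p = 4.6e-05) and fell 10.2-fold from 15 to 30 days (limma adjusted p = 3.4e-05).

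KIF11, which slides spindle microtubules apart and is known as Eg5, read 4.84 and 5.62 at 24h, 7.58 and 7.17 at 7 days, 7.50 and 7.40 at 15 days, and 4.18 and 4.48 at 30 days. It rose 4.42-fold at 7 days (2.14 ± 0.236, SE, limma adjusted p = 1.0e-04) and fell 8.71-fold from 15 to 30 days (limma adjusted p = 3.4e-05). KIF15, a spindle motor that works beside it, followed the same course, with 4.60 and 5.15 at 24h, 6.64 and 6.57 at 7 days, 6.76 and 6.60 at 15 days, and 3.99 and 3.55 at 30 days. Its rise was 3.32-fold (limma adjusted p = 1.1e-04) and its later fall 7.53-fold (limma adjusted p = 1.9e-05). For KIF11 and KIF15 alike, the highest 30-day array was below the lowest array of 24h.

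A further 6 members rose at 7 days by log2 changes between 1.06 (KIFC1) and 1.97 (KIF2C). KIF2C depolymerises microtubules at kinetochores and rose 3.91-fold, from a mean of 3.92 ± 0.0577 to 5.89 ± 0.220 (SD, n = 2, limma adjusted p = 3.8e-06). KIF4A, a chromosome-bound motor of the central spindle, rose 3.44-fold, and KIF14, a motor of cytokinesis, rose 2.67-fold. KIF20B, which also acts in cytokinesis, rose 2.64-fold, KIF18A, which limits chromosome oscillation, rose 2.34-fold, and KIFC1, a minus-end motor that focuses spindle poles, rose 2.08-fold. KIF18B, a regulator of astral microtubules, had a log2 change of 0.34 ± 0.126 (SE) and did not pass (limma adjusted p = 0.0669). Without replicate 2 of 24h it passed, and 11 of 11 were called.

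From 7 to 15 days KIF2C fell by 0.55 and KIF14 fell by 0.43, while the other 9 members did not pass. Both calls ended without either 15-day array (limma adjusted p between 0.0917 and 0.17). They also ended without replicate 1 of 7 days (adjusted p = 0.0859 for KIF2C and 0.0766 for KIF14), and that of KIF14 without replicate 2 of 7 days (0.0835) or with a trended robust variance (0.0583). From 15 to 30 days KIF4A fell 5.41-fold, KIF2C 3.19-fold, KIF20B 2.72-fold, KIFC1 2.27-fold, KIF18A 2.02-fold, KIF14 1.95-fold and KIF18B 1.44-fold. The calls of KIF18A and KIF18B were the weakest of these. That of KIF18A ended without replicate 1 or 2 of 15 days or replicate 2 of 30 days (log2 change -0.78, -1.25 and -0.80). That of KIF18B ended without any single array of those times (-0.55 to -0.49) and on centred arrays (-0.39). The number of mitotic kinesins called lower ranged from 8 to 10 when single arrays were left out.

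Over the month 20.2% of all genes rose, 21.1% fell and 6407 of 10901 did not pass. The mitotic kinesins did not all move the same way. Against 24h, 4 of 11 fell, 1 rose and 6 did not pass, and 1 fell without replicate 2 of 24h while 6 fell without replicate 1. KIF15 fell by 1.10 ± 0.195 (SE, limma adjusted p = 0.00115), KIF11 fell by 0.90 ± 0.236, KIF20A fell by 0.77 ± 0.256 and KIFC1 fell by 0.55 ± 0.134. Apart from KIF15, these calls rested on replicate 2 of 24h, without which the changes were -0.52, -0.31 and -0.39 with limma adjusted p = 0.0733, 0.25 and 0.058. KIF20A also lost its call without any one array of 7 or 15 days or replicate 2 of 30 days (adjusted p between 0.054 and 0.233), and its change was -1.22 without replicate 1 of 24h. KIF11 also lost its call without replicate 1 of 30 days (-0.75, adjusted p = 0.087). KIF18A had both 30-day arrays (5.75 and 5.32) above both 24h arrays (5.22 and 4.86), a log2 change of 0.49 that did not pass (limma adjusted p = 0.159) but did with the replicate number as a block (adjusted p = 0.00843). The 2 arrays of 24h differed in this group, replicate 2 being the higher for 9 of 11 members, with means over the group of 4.54 and 4.95. The partner genes of the spindle and midzone differed the same way, with means of 5.43 and 5.99 and replicate 2 the higher for 8 of 8. Among the 20 other kinesins replicate 2 was the higher for 13, with means of 6.22 and 6.28. For the myosins it was the higher in 24 of 28, with means of 5.62 and 5.75. Among all 10901 genes it was the higher for 5450, with means of 5.55 and 5.56. These differences between means were smaller than that of the mitotic group.

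The 1 that rose over the month was KIF23 (NCBI gene 100522116), the kinesin of centralspindlin, the complex that bundles microtubules at the midzone of a dividing cell. Its values were 5.05 and 6.28 at 24h, 8.46 and 8.27 at 7 days, 8.51 and 8.48 at 15 days, and 8.55 and 8.44 at 30 days. The arrays of the 3 later times lay within a narrow band above both 24h arrays. It rose 6.50-fold at 7 days (2.70 ± 0.303, SE, limma adjusted p = 1.1e-04), the largest increase among the kinesins measured. Its means at 15 and 30 days were both 8.49, and the 95% confidence interval of that difference was -0.68 to 0.68. The intervals of KIF20A (-3.92 to -2.78), KIF11 (-3.65 to -2.59), KIF15 (-3.35 to -2.48), KIF4A (-2.85 to -2.02), KIF2C (-1.96 to -1.39), KIFC1 (-1.48 to -0.88), KIF14 (-1.20 to -0.73) and KIF20B (-1.96 to -0.93) lay wholly below it. The intervals of KIF18A (-1.58 to -0.45) and KIF18B (-0.80 to -0.24) overlapped it, and the differences between genes were not tested. Over the month KIF23 rose 7.10-fold (limma adjusted p = 4.4e-05). KIF23 was measured by a single probe set, and it was singled out after its values were seen.

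**Figure D2:**
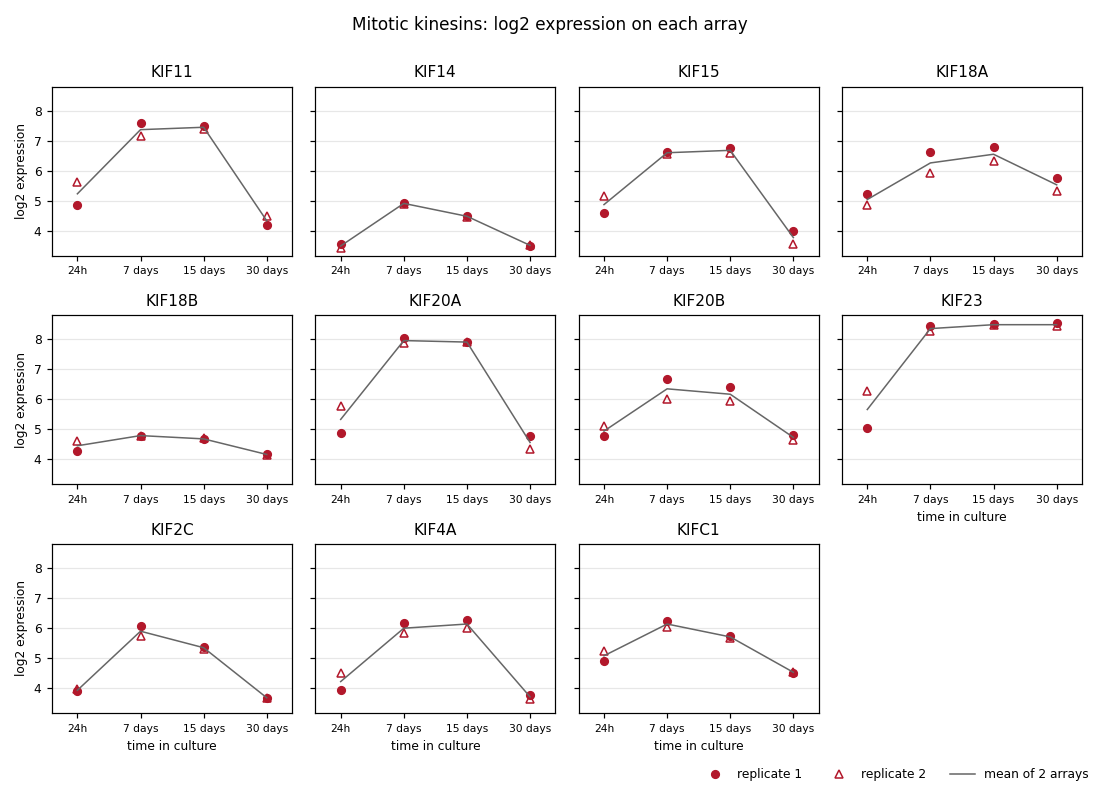
Log2 expression of the 11 mitotic kinesins on each of the 8 arrays by time in culture, with filled circles for replicate 1, open triangles for replicate 2 and a line through the means. At 30 days 10 genes are lower than at 15 days, and KIF23 is at 8.49 at both times.

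Of 20 listed partners of these motors in the spindle and midzone, 8 were measured. All 8 rose at 7 days, with a median log2 change of 1.70, and 7 fell from 15 to 30 days, with a median of -2.15. Of all genes, 18.3% rose at 7 days and 6.11% fell from 15 to 30 days, with medians of -0.01 and 0.01. TOP2A, the topoisomerase that untangles chromosomes, rose by 2.20 ± 0.241 (SE) and then fell by 3.89 ± 0.241 (limma adjusted p = 9.4e-05 and 1.2e-05). HMMR, a spindle protein, rose by 2.93 ± 0.314 and then fell by 3.17 ± 0.314 (limma adjusted p = 8.4e-05 and 1.8e-04). RACGAP1 encodes the other subunit of centralspindlin, and its means were 6.54, 8.02, 7.71 and 5.64 in order of time. From 15 to 30 days it fell by 2.07 ± 0.164 (SE, limma adjusted p = 4.5e-05), and the confidence interval of KIF23 did not reach that value. INCENP, a scaffold of the chromosomal passenger complex, was the 1 partner that did not pass at this comparison (-0.39). RACGAP1 and INCENP were chosen after their values were seen.

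Among 9 measured kinesins of cargo transport, 5 differed over the 4 times, against 46.3% of all genes, and they did not move together. KIF1A, which carries synaptic and dense-core vesicles in neurons, had values of 4.18 and 4.35 at 24h, 6.34 and 6.39 at 7 days, 4.91 and 4.99 at 15 days, and 6.38 and 5.70 at 30 days. Its levels went up, down and up again, and arrays of neighbouring times did not overlap. It rose 4.30-fold at 7 days (2.10 ± 0.191, SE), fell 2.67-fold by 15 days and rose 2.13-fold by 30 days (limma adjusted p = 3.0e-05, 0.00105 and 0.0055). The last rise did not pass without replicate 1 of 15 days (1.05, limma adjusted p = 0.0539).

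KIF21A, which curbs microtubule growth at the cell edge, declined from 7.53 and 7.69 at 24h through 7.57 and 7.36 at 7 days and 6.94 and 6.81 at 15 days to 6.40 and 6.41 at 30 days. The arrays of 15 days lay below all earlier ones, and those of 30 days were lower still. Over the month it fell 2.31-fold (-1.21 ± 0.122, SE, limma adjusted p = 3.0e-05), the largest kinesin decrease over that span, and its other probe set differed by -0.89. The steps from 7 to 15 days (-0.59) and from 15 to 30 days (-0.47) were each called, but the calls ended in 3 and 6 of 15 alternatives. Without replicate 1 or 2 of 15 days, limma adjusted p was 0.0514 and 0.109 for the earlier step and 0.283 and 0.122 for the later. The earlier step also ended without replicate 1 of 7 days (0.0608), and the later without replicate 1 or 2 of 30 days (0.129 and 0.164), on centred arrays (0.0885) and with the mean of its probe sets (0.145).

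KIF13A and KIF16B move endosomes. KIF13A read 8.13 and 8.23 at 24h, 7.17 and 7.25 at 7 days, 7.23 and 7.54 at 15 days, and 7.48 and 7.46 at 30 days, so that every later array was below both first ones. It fell by 0.97 ± 0.126 at 7 days (SE, limma adjusted p = 2.7e-04). KIF16B went the other way, with means of 6.54, 6.67, 7.12 and 7.51, and rose by 0.97 ± 0.150 over the month (SE, limma adjusted p = 5.1e-04).

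KIF5A, a neuronal form of conventional kinesin, read 4.90 and 5.15 at 24h, 4.02 and 4.08 at 7 days, 4.18 and 4.56 at 15 days, and 4.46 and 4.13 at 30 days, all later arrays below those of 24h. It fell by 0.98 ± 0.164 at 7 days, but only in 1 of its 3 probe sets. The other 2 each differed by -0.07, and with the mean of its probe sets the change was -0.37 (limma adjusted p = 0.0267). Its fall over the month (-0.73) did not pass that way (-0.25, adjusted p = 0.104).

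KIF5B, the conventional kinesin of most cells, was at 10.52 at 24h and 10.45 at 30 days, and the 95% confidence interval of the difference was -0.31 to 0.16. KIF1B and KIF1C, carriers of mitochondria and vesicles, also did not pass over the month, with intervals of -0.41 to 0.19 and -0.55 to -0.05. KIF13B, which carries membrane proteins, fell by 0.37 ± 0.115 at 7 days (SE, limma adjusted p = 0.0345). That call ended in 6 of 15 alternatives, among them leaving out either array of 24h (adjusted p = 0.0812 and 0.116), either array of 15 days (0.0636) or replicate 2 of 7 days (0.163), and fitting only the 2 groups (0.0869).

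The kinesin-2 motors KIF3A and KIF3B, which carry components into growing cilia, had nearly level means. KIF3A was at 7.37, 7.30, 7.32 and 7.31 in order of time, with a 95% confidence interval of -0.38 to 0.27 for the month. KIF3B went from 7.16 to 6.92, with an interval of -0.53 to 0.04. KIF3C, a further kinesin-2 subunit, had values of 5.75 and 5.64 at 24h, 6.49 and 6.71 at 7 days, 6.36 and 6.49 at 15 days, and 6.62 and 6.78 at 30 days. All later arrays were above those of 24h, and it rose by 1.00 ± 0.125 over the month (SE, limma adjusted p = 1.2e-04). KIFAP3, the adaptor that joins kinesin-2 to its cargo, rose by 1.45 ± 0.136 over the month (limma adjusted p = 1.8e-05).

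KIF7, a ciliary regulator of Hedgehog signalling, read 5.88 and 5.97 at 24h, 5.53 and 5.83 at 7 days, 6.09 and 6.25 at 15 days, and 6.44 and 6.25 at 30 days. The 4 late arrays lay above the 4 early ones. It rose by 0.49 from 7 to 15 days and by 0.42 over the month (limma adjusted p = 0.0433 and 0.0305), calls that ended in 9 and 5 of 15 alternatives. The earlier rise ended without replicate 1 of 7 days (adjusted p = 0.192) and without either array of 15 days (0.118 and 0.269) or of 30 days (0.0548), and the rise over the month without either array of 24h (0.124 and 0.0599) or replicate 1 of 30 days (0.172). KIF24, which trims microtubules at the centriole and holds back ciliation, read 4.76 and 5.05 at 24h, 5.26 and 5.30 at 7 days, 5.14 and 4.96 at 15 days, and 4.37 and 4.53 at 30 days. The 30-day arrays lay below all others, and it fell by 0.59 from 15 to 30 days. That call was lost without any one array of those times (limma adjusted p between 0.0577 and 0.181). KIF6, a kinesin of motile cilia, lay among the dimmest 25% of genes, with values of 3.22 and 3.39 at 24h, 3.0 and 3.09 at 7 days, 2.89 and 2.81 at 15 days, and 3.0 and 2.84 at 30 days, and fell by 0.38 over the month, a call that ended without replicate 2 of 24h or of 30 days (adjusted p = 0.142 and 0.153). Of 5 measured markers of motile cilia, 2 fell over the month, SPAG6 by 2.08 and DNAH7 by 2.23, where 21.1% of all genes fell.

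Of the remaining kinesins, KIF12, which is expressed in kidney and liver epithelia, changed. Its values were 4.42 and 4.34 at 24h, 4.96 and 5.17 at 7 days, 5.12 and 5.00 at 15 days, and 5.51 and 5.88 at 30 days. The first and last arrays bounded the rest, and it rose 2.48-fold over the month (1.31 ± 0.144, SE, limma adjusted p = 5.3e-05). The other 4, KIF1BP, KIF25, KIF26B and KIF2B, were called in none of the 4 comparisons, with log2 changes between -0.26 and 0.30.

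**Figure D3:**
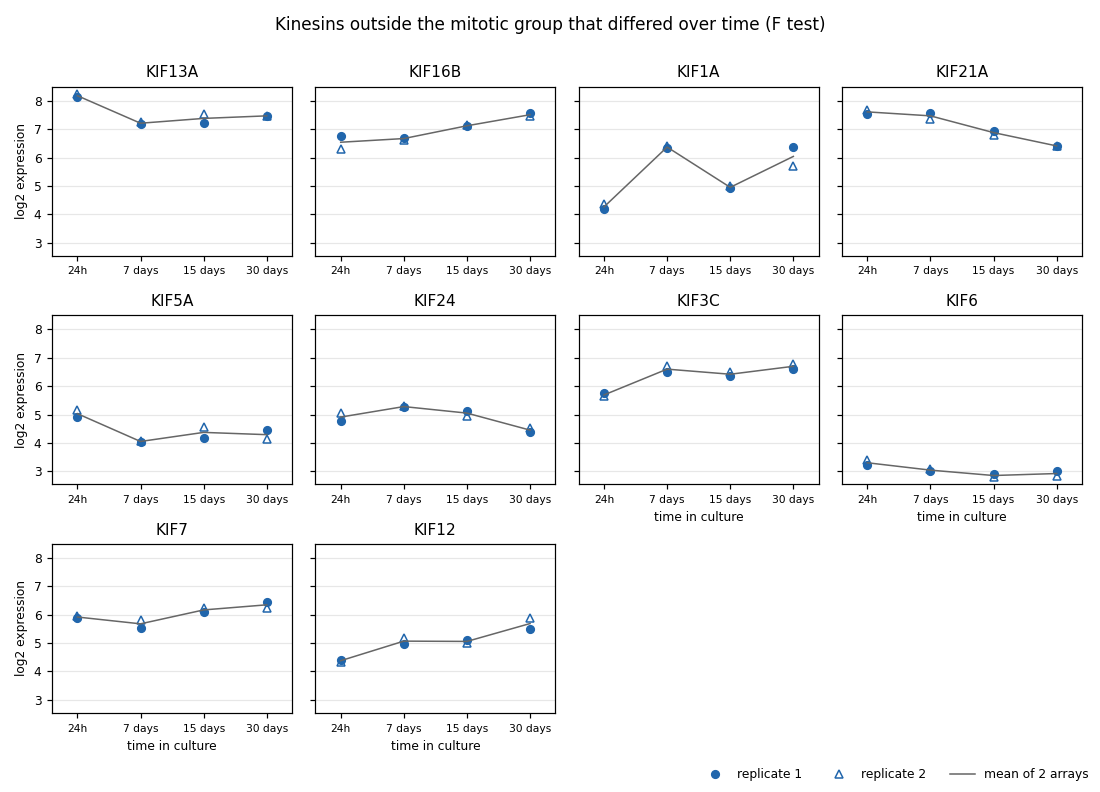
Log2 expression on each of the 8 arrays for the 10 kinesins outside the mitotic group that differed over the 4 times, with circles for replicate 1, triangles for replicate 2 and a line through the means. KIF1A alternates between 4.26, 6.37, 4.95 and 6.04, KIF21A declines and KIF12 and KIF16B end above their 24h values.

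Other genes of microtubule transport were counted over the month, when 20.2% of all genes were called higher and 21.1% lower. Of 13 listed kinesin light chains and adaptors, 5 were measured, of which 3 rose and 1 fell over the month. Beside KIFAP3, KLC4, a light chain of conventional kinesin, rose by 1.19 ± 0.127 (SE, limma adjusted p = 4.2e-05). Of 22 listed genes of cytoplasmic dynein and dynactin, the motor system that runs toward the minus end, 15 were measured, of which 6 rose and 0 fell over the month in limma (0 fell at an unadjusted p under 0.05). DYNC2LI1 and DYNC2H1, which form the dynein of intraflagellar transport, rose by 2.00 ± 0.161 and 1.21 ± 0.194 (SE, limma adjusted p = 6.3e-06 and 6.3e-04), mainly between 7 and 15 days (1.33 and 1.42).

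Myosin II rose in 1 heavy chain and both measured light chains of non-muscle cells. MYL9, the regulatory light chain whose phosphorylation switches on contraction in smooth muscle and myofibroblasts, was at 7.56 and 7.77 at 24h, 9.84 and 10.18 at 7 days, 10.15 and 10.20 at 15 days, and 9.91 and 9.84 at 30 days. Every later array was above both 24h arrays, and the 3 later times lay close together. It rose 5.08-fold at 7 days (2.35 ± 0.138, SE, limma adjusted p = 2.1e-06), the largest myosin increase. Its change from 15 to 30 days did not pass (-0.30 ± 0.138, SE, limma adjusted p = 0.244).

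MYH10, the heavy chain of non-muscle myosin IIB, had values of 7.62 and 7.24 at 24h, 8.89 and 8.86 at 7 days, 8.83 and 8.70 at 15 days, and 8.87 and 8.93 at 30 days. Like MYL9 it stepped up once and stayed there. It rose 2.73-fold at 7 days (1.45 ± 0.137, SE, limma adjusted p = 3.8e-05), and its change over the month was 1.47 ± 0.137. MYL6, the essential light chain, read 10.55 and 10.79 at 24h, 11.04 and 11.18 at 7 days, 11.22 and 11.02 at 15 days, and 11.08 and 11.02 at 30 days. Its rises of 0.44 at 7 days and 0.38 over the month were called (limma adjusted p = 0.0236 and 0.0373). They ended in 4 and 8 of 15 alternatives, centred arrays included (0.28 and 0.34). Without replicate 1 of 24h the changes were 0.32 and 0.26 (adjusted p = 0.146 and 0.218). The earlier call also ended without replicate 2 of 7 days (0.114), and that of the month without either array of 15 days (0.0519) or of 30 days (0.141 and 0.0923).

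MYH9, the heavy chain of non-muscle myosin IIA, was called in no comparison, with means of 4.76, 4.97, 4.94 and 4.74 and a 95% confidence interval of -0.34 to 0.32 for the month. MYH9 was measured by 1 probe set, with a mean of 4.85 over the 8 arrays, and how well that probe set reports the gene was not tested. MYH14, the third non-muscle heavy chain, differed over the 4 times in the F test (limma adjusted p = 0.0247) but passed in none of the 4 comparisons. Its values were 5.72 and 5.82 at 24h, 6.01 and 6.19 at 7 days, 5.88 and 5.74 at 15 days, and 5.64 and 5.32 at 30 days, so that 7 days was the highest time and 30 days the lowest. The smooth muscle heavy chain MYH11 and the light chains MYL12A and MYL12B were not analysed here.

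Of 28 listed regulators and partners of myosin II, 19 were measured. Of these, 8 rose and 1 fell at 7 days, and 8 rose and 6 fell over the month. Among all genes, 18.3% rose and 15.4% fell at 7 days, and 20.2% rose and 21.1% fell over the month. ACTA2, smooth muscle actin, rose by 2.39 ± 0.144 at 7 days and by 4.92 ± 0.144 over the month (SE, limma adjusted p = 2.6e-06 and 1.0e-08). TPM2, a tropomyosin, rose by 2.76 ± 0.209 over the month (limma adjusted p = 4.3e-06). MYLK, the kinase that phosphorylates MYL9, had means of 5.77, 7.86, 9.00 and 8.96 and rose by 3.19 ± 0.141 (limma adjusted p = 1.2e-07), and was chosen after its values were seen. The mean of the 4 measured smooth muscle markers, ACTA2 among them, was 6.37 and 6.49 at 24h and 7.78 and 7.96 at 30 days, with 2 of 4 rising. MYOCD, a transcription cofactor that defines smooth muscle, was at 3.78 and 3.41, and the dimmest 25% of genes lay below 3.62.

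The myosin chains of striated muscle comprised 3 heavy and 6 light chains. Of all genes, 33.7% were called at 7 days, 13.3% from 7 to 15 days and 10.1% from 15 to 30 days. Over the month 41.2% were called, and over the 4 times 46.3%. None of 3 sarcomeric heavy chains (MYH1, MYH7 and MYH7B) was called in any of the 4 comparisons or over the 4 times in limma (at an unadjusted p under 0.05, 1 fell at 7 days). Of 6 sarcomeric light chains (MYL1, MYL2, MYL3, MYL4, MYL7 and MYL10), 4 lay among the dimmest 25% of genes. MYL2 rose by 0.36 at 7 days and MYL4 rose by 0.40 over the month (limma adjusted p = 0.0398 and 0.0440), calls that ended in 8 and 9 of 14 alternatives. MYL2 read 3.39 and 3.45 at 24h, 3.73 and 3.82 at 7 days, 3.59 and 3.51 at 15 days, and 3.45 and 3.67 at 30 days, with 7 days above all other times. MYL4 read 3.36 and 3.14 at 24h, 3.38 and 3.33 at 7 days, 3.30 and 3.45 at 15 days, and 3.49 and 3.81 at 30 days, where the last arrays were the highest. For MYL2 the lost calls included leaving out any single array of 24h, 7 or 15 days (adjusted p between 0.0692 and 0.144), and for MYL4 replicate 2 of 24h (0.224), any array of 7 or 15 days (0.0558 and 0.0652) and replicate 2 of 30 days (0.24 with adjusted p = 0.295). With the replicate number as a block, MYL4 did not pass either (adjusted p = 0.0503). The mean of 5 skeletal and cardiac muscle markers was between 4.03 and 4.33 on all arrays.

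Class I myosins link membranes to actin as single-headed motors. MYO1D, found along the lateral membrane and brush border of epithelia, read 10.40 and 10.38 at 24h, 10.72 and 10.83 at 7 days, 10.92 and 10.98 at 15 days, and 11.18 and 11.06 at 30 days. Its arrays did not overlap between any 2 times, and it rose by 0.73 ± 0.108 over the month (SE, limma adjusted p = 3.9e-04). The part reached by 7 days (0.38) was called, but not on centred arrays (0.22), nor without either array of 24h (limma adjusted p = 0.0639 and 0.0738) or replicate 2 of 7 days (0.0956). MYO1E, which acts in endocytosis and at cell contacts, read 9.28 and 9.72 at 24h, 9.05 and 8.74 at 7 days, 9.18 and 9.17 at 15 days, and 9.71 and 9.75 at 30 days. It fell by 0.61 at 7 days, a call lost without replicate 2 of 24h (-0.38, adjusted p = 0.104) or of 7 days (-0.45, adjusted p = 0.108). MYO1G and MYO1H, among the dimmest 25% of genes, were called in no comparison.

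The class V myosins, which carry vesicles and organelles along actin, parted. MYO5C, a carrier of secretory granules in glandular epithelium, had values of 6.78 and 7.11 at 24h, 6.47 and 6.08 at 7 days, 4.36 and 4.56 at 15 days, and 3.54 and 3.95 at 30 days. It was lower at each later time with no overlap between times. The fall over the month was 9.19-fold (-3.20 ± 0.187, SE, limma adjusted p = 7.4e-07), the largest decrease of any motor over that span, and most of it came between 7 and 15 days (-1.82, limma adjusted p = 2.1e-04). The first step (-0.67) did not pass without replicate 2 of 24h or of 7 days (-0.51 and -0.47, adjusted p = 0.124 and 0.141). The last step (-0.71) did not pass on centred arrays (-0.59), without either array of 15 days (adjusted p = 0.118 and 0.252) or without replicate 1 of 30 days (0.217).

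MYO5B, which recycles membrane proteins to the apical surface, changed later. It had values of 8.15 and 8.42 at 24h, 8.27 and 8.23 at 7 days, 7.81 and 7.78 at 15 days, and 6.50 and 6.54 at 30 days. The first 4 arrays overlapped, and the 30-day arrays lay far below all others. It fell 2.41-fold from 15 to 30 days (-1.27 ± 0.119, SE, limma adjusted p = 1.3e-04) and 3.39-fold over the month, and its other probe set differed by -2.12. The smaller step from 7 to 15 days (-0.46, limma adjusted p = 0.0329) ended without any one array of 7, 15 or 30 days (adjusted p between 0.0507 and 0.183). MYO5A, the member that carries melanosomes, went up, with 7.75 and 7.96 at 24h, 8.13 and 8.15 at 7 days, 8.55 and 8.46 at 15 days, and 8.50 and 8.76 at 30 days. It rose by 0.77 ± 0.128 (SE, limma adjusted p = 7.6e-04), with 1.20 in its other probe set. Of 7 epithelial markers measured on the same arrays, 5 fell over the month, among them OVGP1, the secreted glycoprotein of the oviduct, which fell by 7.49, and EPCAM, which fell by 7.93. The part of this loss in the falls of MYO5C and MYO5B was not tested.

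MYO6, which moves toward the minus end of actin and acts in endocytosis at the base of microvilli, was at 9.33 and 9.60 at 24h, 9.43 and 9.29 at 7 days, 8.78 and 8.70 at 15 days, and 8.70 and 8.79 at 30 days. The 4 late arrays lay below the 4 early ones. It fell by 0.72 ± 0.127 over the month (SE, limma adjusted p = 0.00112). Its step from 7 to 15 days (-0.62) was lost without replicate 1 of 7 days (adjusted p = 0.0583) or either array of 15 days (0.0616 and 0.0936). MYO19, the myosin of mitochondria, read 5.94 and 6.17 at 24h, 5.63 and 5.73 at 7 days, 5.44 and 5.76 at 15 days, and 5.09 and 5.27 at 30 days. Its last arrays were below all others, and it fell by 0.87 ± 0.144 (SE, limma adjusted p = 7.3e-04). MYO16, studied mainly in neurons, read 4.02 and 4.71 at 24h, 4.07 and 4.17 at 7 days, 3.46 and 3.69 at 15 days, and 3.54 and 3.47 at 30 days. The 4 late arrays lay below the 4 early ones, and it fell by 0.86 ± 0.198 (SE, limma adjusted p = 0.00561), or with a change of -0.52 without replicate 2 of 24h. MYO7A and MYO7B of stereocilia and microvilli, MYO9A, and MYO18B of muscle were called in no comparison.

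**Figure D4:**
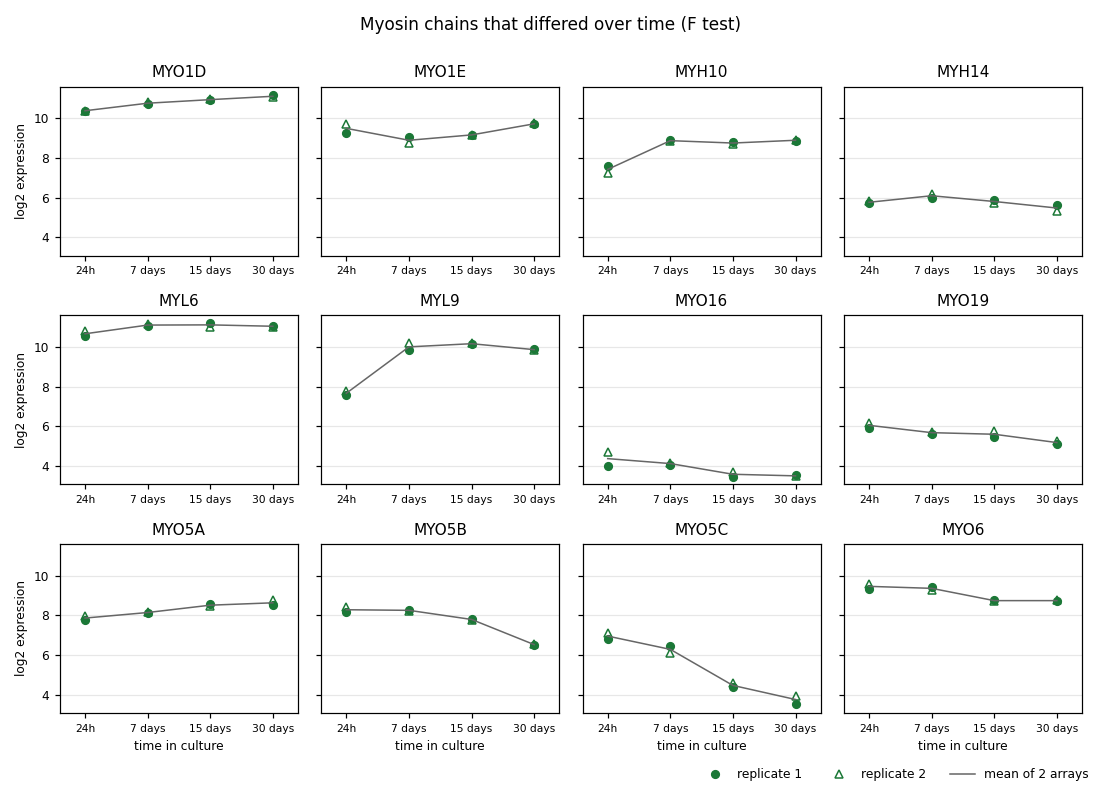
Log2 expression on each of the 8 arrays for the 12 myosin genes that differed over the 4 times, with circles for replicate 1, triangles for replicate 2 and a line through the means. MYL9 and MYH10 step up by 7 days, MYO5C falls from a mean of 6.95 to 3.75, and MYO5B falls after 15 days.

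Over the month as a whole, the largest increases among the motors were those of KIF23 (2.83), MYL9 (2.21), KIF1A (1.78), MYH10 (1.47) and KIF12 (1.31), and the largest decreases those of MYO5C (-3.20), MYO5B (-1.76), KIF21A (-1.21), KIF15 (-1.10) and KIF11 (-0.90). At least 2-fold changes were called for 4 kinesins higher and 2 lower and for 2 myosins higher and 2 lower, where 8.90% of all genes were called higher and 7.82% lower by that rule. Of the 59 motors, 33 did not pass for the month, where 6407 of all 10901 genes did not. The median of all 59 was -0.09 beside -0.02 for all genes.

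**Figure D5:**
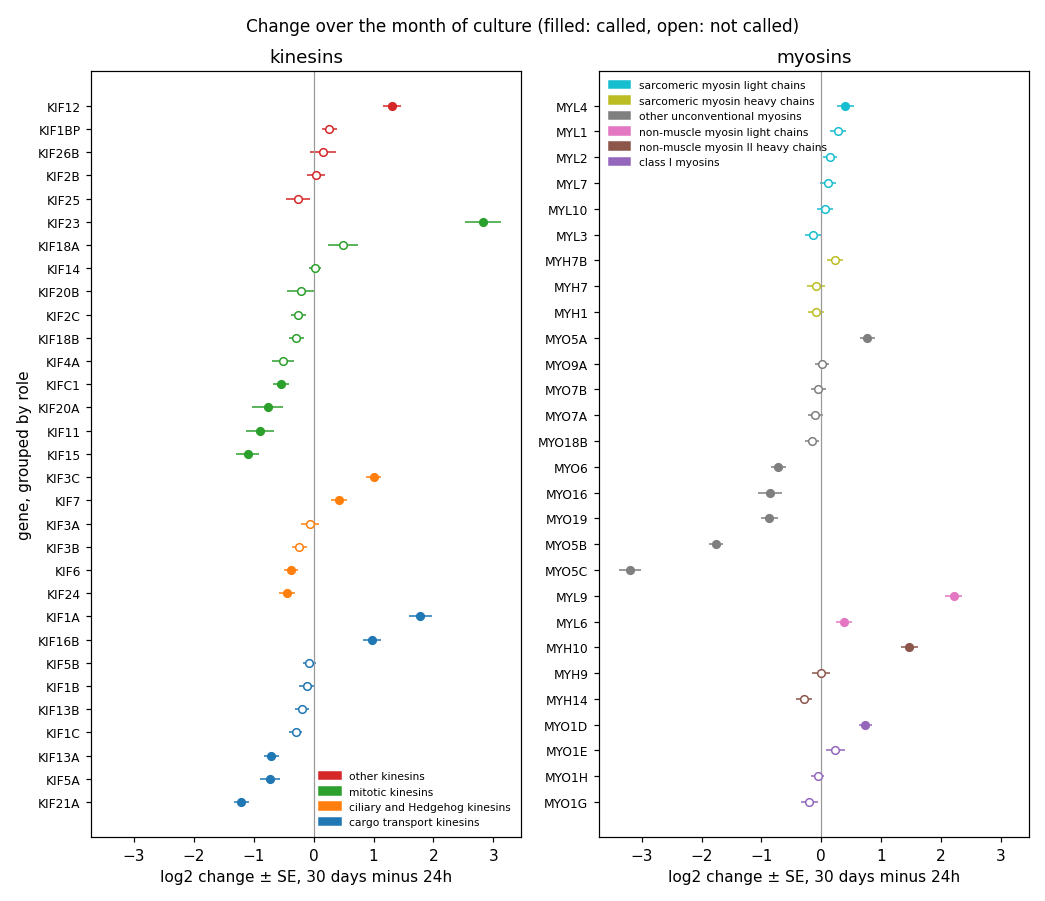
Log2 change from 24h to 30 days with its standard error for all 31 kinesins (left) and 28 myosins (right), coloured by role. Filled points passed limma's test and open points did not. KIF23 at 2.83 and MYO5C at -3.20 are the extremes.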

How the data were processed

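Gene expression in cultured porcine oviductal epithelial cells was measured with 1-colour Affymetrix arrays after amplification and biotin labelling, per the labels' protocols. The authors summarised each probe set by RMA, per the submitters' processing notes, and deposited 1 log2 value per probe set and array, a scale inferred here from the range of the numbers. Which RMA version, annotation and filter were used is not given in the sources used. Since RMA makes the arrays' distributions alike, a change common to most genes would be lost. Detection calls were not used, and a gene near the floor may be off or merely dim.

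Of 27558 probe sets, 11968 had 1 gene symbol in the platform annotation, checked by gene identifier against RefSeq (Sscrofa11.1, names only). The probe set with the highest mean was kept for each gene, leaving 10901 genes. The motors had 70 probe sets, 9 genes having more than 1, and for MYL6 and MYL9 a further probe set held identical values. A probe set of several MYH genes was left out.

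The tests used limma 3.58.1 (lmFit, eBayes; R 4.3.3) on all 8 arrays with 1 mean per time and 4 residual degrees of freedom, without a filter. Each of 4 comparisons and a moderated F test was adjusted by Benjamini-Hochberg across all genes. In a simulation of the 7-day against 24h comparison with 10901 genes, 83 of 100 genes changed 2-fold and 97 of 100 changed 4-fold were recovered, with 4 unchanged genes called. The simulation changed only these genes and drew independent normal noise from each gene's spread between arrays. In the data 33.7% of all genes were called at this comparison, so these rates need not carry over. The alternatives were arrays centred on their medians or quantile normalised, a filter on the dimmest 25%, averaged probe sets, a trended robust variance, fits to only 2 groups, a block for the replicate number, the omission of each array in turn, and an added 2-fold minimum.

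Values per array are given for up to 4 motors per role that passed a test, those with the largest range of time means, and for the largest called rise and fall of each family. MYO5A and MYO6 were added after their values were seen. Others are described by means or changes. Of each companion list, up to 2 called genes with the largest range are named. The members, roles and lists were chosen with earlier results of these data known.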

Additional observations from a re-analysis of the deposited data

How the results depend on the processing

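Of 73 called changes of single motors, 45 were called under all alternatives run for them other than the 2-fold minimum and 0 reversed, 38 being under 2-fold, while 27 of 163 uncalled changes gained a call under at least 1. Counts of calls moved more. At 7 days, kinesins lower went from 3 to 7 on centred arrays and 0 with a 2-fold minimum. Myosins higher went from 5 to 2 on centred arrays, with only the 2 groups fitted and with a 2-fold minimum, and myosins lower from 2 to 6, 1 and 0. From 7 to 15 days, kinesins higher went from 1 to 0 on centred arrays, after quantile normalization, with trended robust variance and with a 2-fold minimum, under which kinesins lower went from 4 to 1 and myosins lower from 3 to 1. From 15 to 30 days, myosins higher went from 0 to 2 on centred arrays and after quantile normalization, and to 1 with trended robust variance or only 2 groups. Myosins lower went from 2 to 1 on centred arrays and with a 2-fold minimum, under which kinesins higher went from 2 to 1. Over the month the 2-fold minimum left 2 kinesins lower (of 9), 2 myosins higher (of 6) and 2 lower (of 5). The low counts under the 2-fold minimum follow from its construction, and the cause of the other shifts was not tested. Fitting only the 2 groups also ended the calls of KIF13B, MYL6, MYL2, MYO1D and MYO1E at 7 days, of KIF7 from 7 to 15 days and of KIF20A, KIF6, MYL6 and MYL4 over the month.

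With single arrays left out, myosins at 7 days ranged from 2 to 5 higher and 0 to 3 lower. From 7 to 15 days, kinesins ranged from 0 to 2 higher and 1 to 5 lower, and myosins from 1 to 4 lower. From 15 to 30 days, kinesins higher ranged from 0 to 2, myosins higher from 0 to 1 and myosins lower from 1 to 2, and over the month kinesins lower from 4 to 11. The samples share only a replicate number. Same-numbered arrays deviated together with correlations of 0.008 to 0.268 across genes, and with the replicate block the kinesins at 7 days stayed at 13 higher and 3 lower, the myosins at 5 higher against 3 lower, and the month gave 7 kinesins higher. With 2 arrays per time and 9 motors among the dimmest 25% of genes, small changes of dim genes are the least certain.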
